A study of Mus musculus with 10 samples.

Results

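The lysosome is the acid compartment in which cells break down protein, sugar chains and lipid. A set of 43 genes that build and run it, chosen by symbol, was followed in ulcer tissue of db/db mice, and all 43 were found among the 55421 genes of the deposited table and passed the filter on low counts. The set held 10 cysteine cathepsins with legumain, 4 aspartic and serine proteases, 13 glycosidases, lipid hydrolases and their helper proteins, 4 membrane proteins, 3 transcription factors and 8 proton pump genes. The mice carry a leptin receptor mutation that makes them obese and diabetic, and ulcers were made by surgical resection. The saline group (5 libraries, treatment given as saline) was compared with the ointment group (5 libraries, saline and Fu Huang ointment) after 7 days of administration. The labels state neither age nor sex, and both groups are diabetic ulcers, with no healthy skin beside them. The study set out to find genes through which the ointment acts on such ulcers.

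Cathepsins are proteases that are made as inactive precursors and are activated at low pH. The proton pump (V-ATPase) sets that pH: its membrane sector, V0, carries the protons, and its cytosolic sector, V1, burns ATP to drive them. Transcription factors of the TFEB family bind a short palindrome, known as the CLEAR element, near the start of many lysosomal genes. Macrophages, which clear debris from wounds, are rich in lysosomes.

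With ointment, ulcers held more transcript of 3 lysosomal cysteine proteases, cathepsin S (Ctss), legumain (Lgmn) and cathepsin B (Ctsb). Ctss rose 1.91-fold, Lgmn 1.71-fold and Ctsb 1.44-fold. Of 10 fits that each left out 1 library, the Ctss call held in 10, that of Lgmn in 3 and that of Ctsb in 0. With all 10 libraries, these 3 of 43 members passed an adjusted p of 0.05 by edgeR's quasi-likelihood test and were higher. Of all 18509 genes tested, 0.692% were called higher. Lower calls numbered 0, against 0.983% of all genes (1.67% in either direction). The other 40 did not pass, and 33 of the 43 fold changes were positive, against 9195 of the 18509 over all genes tested. The median log2 fold change of ointment against saline (log2FC) of the 43 was 0.28, against -0.0025 for all genes tested. In 11 members every ointment library lay above every saline library, as was true of 3.11% of all genes tested and of 3.7% of the 10700 genes with at least 10 CPM (TMM-normalized counts scaled to a common library total) on average. In 0 members did every ointment library lie below every saline library, against 3.44% of all genes. At an unadjusted p under 0.05, 18 members were higher and 2 lower (17.1% of all genes were under that value in either direction). DESeq2 called 14 members higher and 0 lower, against 4.73% and 4.36% of all genes (9.09% in either direction). The 14 were Ctsb, Ctsh, Ctsl, Ctss, Lgmn, Ctsd, Ctse, Gusb, Psap, Npc2, Cd63, Atp6v0a1, Atp6v1c1 and Atp6ap1.

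Totals were 47.8 to 62.9 M counts per library. Epidermal keratinocyte markers, among them Krt5 and Krt14, summed to 20529 to 29084 CPM in the saline libraries and 16019.8 to 29354 CPM in the ointment libraries. Those of fibroblasts, among them Col1a1 and Col3a1, summed to 38889.6 to 61169.6 CPM in the saline libraries and 19692 to 63847 CPM in the ointment libraries, so the markers of both main skin compartments were present. All 8 keratinocyte markers had negative fold changes (median log2FC -0.34). By edgeR 0 of them passed, with 2 lower at an unadjusted p under 0.05 and 2 lower by DESeq2. All 7 endothelial markers were also negative (median -0.52), and 0 passed by edgeR (2 lower at an unadjusted p under 0.05, 1 by DESeq2). Of 8 fibroblast markers, 6 were negative and 2 positive, and 0 passed by edgeR. Of 17 macrophage markers, 17 had positive fold changes and 3 rose, Adgre1 (0.87 on the log2 scale, adjusted p = 0.00649 by edgeR), Cd68 (0.78, 0.0125) and Trem2 (0.83, 0.0325; lost in 6 of 10 fits that each left out 1 library). The list summed to 3741 to 6259.6 CPM in the saline libraries and 7959.7 to 11105 CPM in the ointment libraries, without overlap. Of its members, Cx3cr1 was at 0 in 1 saline library. Neutrophil markers summed to 852 to 2729 CPM in the saline libraries and 1689.9 to 7825 CPM in the ointment libraries, and 0 of the 11 tested passed by edgeR (9 higher at an unadjusted p under 0.05, 7 higher by DESeq2). Of 5 adipocyte markers, 1, Lep, rose (4.16, adjusted p = 0.0347), and at an unadjusted p under 0.05 the list held 3 higher and 1 lower. Of 8 dendritic cell markers, 1, Cd207, fell (-1.05, 0.0343), with 1 higher and 1 lower at an unadjusted p. The Lep and Cd207 calls were lost in 8 and 9 of those 10 fits. The part of these cells in the results below was not tested. In bulk tissue, fewer cells of a type and less RNA per cell cannot be told apart.

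Many lysosomal promoters are known for the TFEB family's palindrome, so sequences were searched for it. The fold changes were already known at that point. RefSeq promoters (GRCm38.p6, 250 bases before to 50 after each start) were found for 33 of the 43 members, which had 40 starts. The letters CACGTG, the core of the element, read the same on both strands and occurred in 12 of those 40 promoters (30.0%), against 7.15% of all 32851 promoters. The longer TCACGTGA, which contains CACGTG and is also its own reverse complement, occurred in 6 of the 40, against 0.974% of all. The other lysosomal genes listed below held CACGTG in 19.3% of their 145 promoters.

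The 100 bases before the start of 3 members show the range, with capitals marking CACGTG. Lamp1 is shown because it held the most matches, 4, in chr8:13159061-13159160 on the plus strand. Lgmn and Ctss are shown because their transcripts rose. Lgmn held 1 match at 1 of its 2 RefSeq starts (chr12:102439093-102439192, minus strand), and Ctss held none (chr3:95526686-95526785, plus strand). The Lgmn start was picked for its match, and its window lies inside the annotated span of the gene.
Lamp1: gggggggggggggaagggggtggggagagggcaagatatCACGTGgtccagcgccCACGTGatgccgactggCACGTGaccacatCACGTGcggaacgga
Lgmn: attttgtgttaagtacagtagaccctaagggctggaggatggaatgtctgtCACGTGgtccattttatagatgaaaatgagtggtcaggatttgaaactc
Ctss: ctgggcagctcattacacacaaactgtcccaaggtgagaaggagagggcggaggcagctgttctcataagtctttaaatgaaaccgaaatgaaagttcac
In the 28 bases around the longer element, capitals mark TCACGTGA. The Atp6v0d1 match begins 4 bases before the start and runs across it. For each of the 6 members that hold TCACGTGA, the nearest match that begins upstream of the start is shown. These lie at chr7:142387909-142387936 (Ctsd, minus strand), chr2:164833750-164833777 (Ctsa, plus), chr8:3500463-3500490 (Mcoln1, plus), chrX:134601183-134601210 (Gla, minus), chr8:105566051-105566078 (Atp6v0d1, minus) and chr16:44139374-44139401 (Atp6v1a, minus).
Ctsd: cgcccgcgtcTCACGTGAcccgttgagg
Ctsa: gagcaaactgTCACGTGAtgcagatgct
Mcoln1: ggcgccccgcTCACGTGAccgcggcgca
Gla: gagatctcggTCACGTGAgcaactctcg
Atp6v0d1: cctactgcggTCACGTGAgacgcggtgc
Atp6v1a: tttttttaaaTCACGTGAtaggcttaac
A match is a description of the letters and not a site of binding. The 12 members with CACGTG had a median log2FC of 0.10 (range -0.52 to 0.80). Of them 1 rose, Lgmn, whose match lies inside the annotated span of the gene. The 21 with a promoter entry and no CACGTG had a median of 0.29 (range -0.57 to 0.94), and 1 of them, Ctss, rose. Ctsb was among the 10 members without a promoter entry. Whether the medians of these sets differ was not tested.

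Cysteine cathepsins and legumain carried the 3 calls, and the other 8 genes of that list did not pass by edgeR. Ctss, which trims the invariant chain for antigen presentation and stays active outside the acid compartment, lies at chromosome 3, 95526786 to 95556403 (GRCm38, GENCODE M21). It was 586, 715, 719.7, 820.2 and 821 CPM in saline libraries 1 to 5 and 1279.7, 1379.7, 1780.3, 1151 and 1416 CPM in ointment libraries 1 to 5. The groups did not overlap, with ointment 3 the highest and saline 1 the lowest. The means were 732 ± 96.7 and 1401 ± 236 CPM (SD, n = 5 each), a log2FC of 0.94 (SE 0.14, adjusted p = 0.0159 by edgeR, Benjamini-Hochberg). The call held whichever library was left out (adjusted p up to 0.0431) and was lost with 4 libraries per group, without saline 1 and ointment 5 (0.0800).

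Lgmn, an endopeptidase that cuts after asparagine and processes other cathepsins, lies at chromosome 12, 102394084 to 102439813. It was 399, 621, 505, 525 and 593 CPM in saline libraries 1 to 5 and 904, 1000.2, 1029.8, 729 and 868 CPM in ointment libraries 1 to 5. Every ointment library lay above every saline library, the nearest pair being ointment 4 and saline 2. The log2FC was 0.78 (SE 0.14, adjusted p = 0.0307 by edgeR). The call was lost without saline 1 (adjusted p = 0.0580), saline 3 (0.0725), saline 4 (0.0702), ointment 1 (0.0727), ointment 2 (0.0668), ointment 3 (0.0796) or ointment 5 (0.0672).

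Ctsb, an abundant endopeptidase that also trims dipeptides from carboxyl ends, lies at chromosome 14, 63122462 to 63145923 and shares exon sequence with Fdft1 on the opposite strand. It was 3032, 3036, 3451, 2905 and 3459.6 CPM in saline libraries 1 to 5 and 5043, 4264, 5195, 4396 and 3935 CPM in ointment libraries 1 to 5. The groups did not overlap, and ointment 5 lay closest to the saline libraries. The log2FC was 0.52 (SE 0.11, adjusted p = 0.0406 by edgeR). This call was lost whichever library was left out, with adjusted p from 0.0513 without ointment 5 to 0.112 without saline 1, and with library sizes alone (0.0664), upper-quartile scaling (0.0567) or no low-count filter (0.0756).

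**Figure D1:**
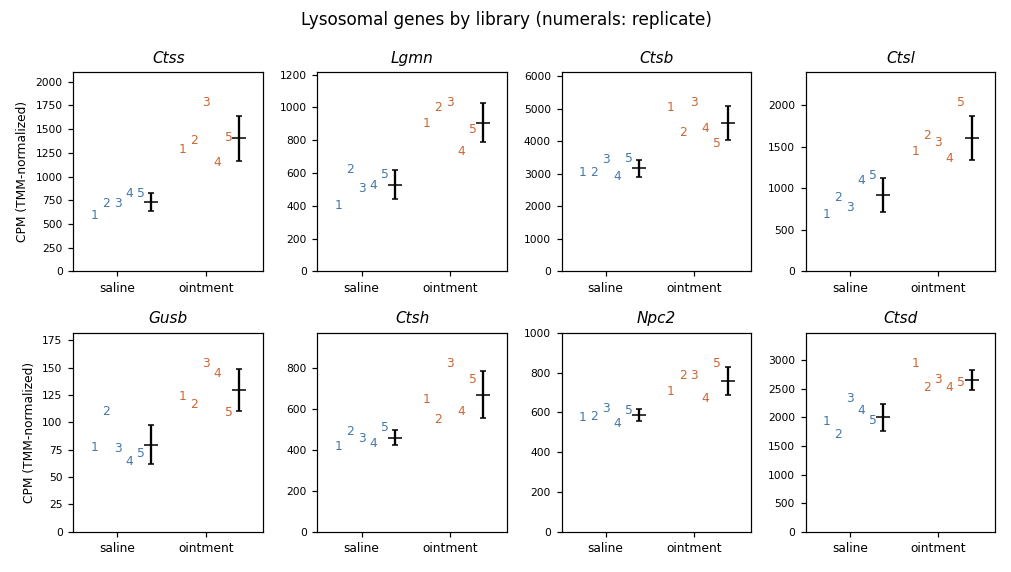
TMM-normalized CPM (vertical axes from 0) of 8 lysosomal genes in saline and ointment libraries; numerals are replicate numbers, bars the mean ± SD of 5 libraries. In 7 of the 8 genes every ointment library lies above every saline library, and in Gusb saline 2 lies among the ointment libraries.

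Ctsl, an endopeptidase of lysosomes and of epidermis, lay just outside the threshold. It was 683, 894, 773, 1093 and 1159.7 CPM in saline libraries 1 to 5 and 1448, 1641, 1551, 1363 and 2035 CPM in ointment libraries 1 to 5. The groups did not overlap, and ointment 5 was the highest. The log2FC was 0.80 (SE 0.17, adjusted p = 0.0505 by edgeR), and it passed without saline 5 (0.0465) or ointment 4 (0.0471), with limma voom (0.0424) and with the values divided by 4 (0.0393). Ctsh, an aminopeptidase, was 418, 490.0, 456, 431 and 509 CPM in saline libraries 1 to 5 and 648, 551, 826, 589 and 746 CPM in ointment libraries 1 to 5. Its groups were also apart, at a log2FC of 0.54 that did not pass (SE 0.13, adjusted p = 0.0662 by edgeR).

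The remaining cysteine cathepsins went both ways, and none passed. Ctsz, a carboxypeptidase, ran from 146 to 323 CPM with saline and from 252 to 426 CPM with ointment (log2FC 0.62, adjusted p = 0.186 by edgeR). Ctsk, the collagen-cutting cathepsin of osteoclasts that fibroblasts also make, was 667, 562, 573, 459 and 663 CPM in saline libraries 1 to 5 and 424, 274, 431, 581 and 256 CPM in ointment libraries 1 to 5. Ointment 4 lay among the saline libraries, while the other 4 ointment libraries lay below all of them (-0.57, SE 0.23, adjusted p = 0.230). Ctsf was 29.1 to 62.2 and 19.4 to 42.2 CPM (-0.52, adjusted p = 0.319), and Ctso was 45.7 to 65.8 and 22.1 to 63.6 CPM (-0.26, 0.71), at -0.079 without ointment 2. Ctsw, a cathepsin of cytotoxic lymphocytes, averaged 4.06 ± 0.614 CPM in the saline group and 3.27 ± 0.812 CPM in the ointment group (SD, n = 5; log2FC -0.31, adjusted p = 0.534). The T and natural killer cell markers summed to 38.2 to 47.4 CPM in the saline libraries and 34.9 to 55.2 CPM in the ointment libraries, and 0 of the 12 tested passed by edgeR (1 higher at an unadjusted p under 0.05 and 1 by DESeq2).

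Ctsc, the dipeptidyl peptidase that activates the serine proteases of neutrophils and mast cells, had no common level in the ointment group. It was 359, 394, 409.7, 438 and 546 CPM in saline libraries 1 to 5 and 149, 667, 582, 148 and 692 CPM in ointment libraries 1 to 5. Ointment 1 and 4 lay below every saline library and ointment 2, 3 and 5 lay above every saline library, with a 3.90-fold step between them. The log2FC of 0.059 (95% confidence interval -0.93 to 1.05, adjusted p = 0.971 by edgeR) averaged values on either side of the saline range.

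The aspartic proteases had higher values with ointment and did not pass by edgeR. DESeq2 called Ctsd (adjusted p = 0.0031) and Ctse (0.0053). Ctsd, the main aspartic protease of lysosomes, was 1922, 1706, 2329, 2127 and 1942 CPM in saline libraries 1 to 5 and 2951, 2522, 2669, 2522 and 2614 CPM in ointment libraries 1 to 5. The groups did not overlap (log2FC 0.41, SE 0.10, adjusted p = 0.0803 by edgeR). Ctse, an aspartic protease of endosomes, was low, at 0.707 to 2.10 CPM with saline and 2.44 to 6.08 CPM with ointment (1.39, SE 0.37, adjusted p = 0.0902), again with the groups apart. Of the serine proteases, Ctsa, the carboxypeptidase that protects beta-galactosidase and neuraminidase, had a log2FC of 0.067 (95% confidence interval -0.17 to 0.31, adjusted p = 0.833). Tpp1, a tripeptidyl peptidase, was at 0.13 (-0.084 to 0.33, 0.572).

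**Figure D2:**
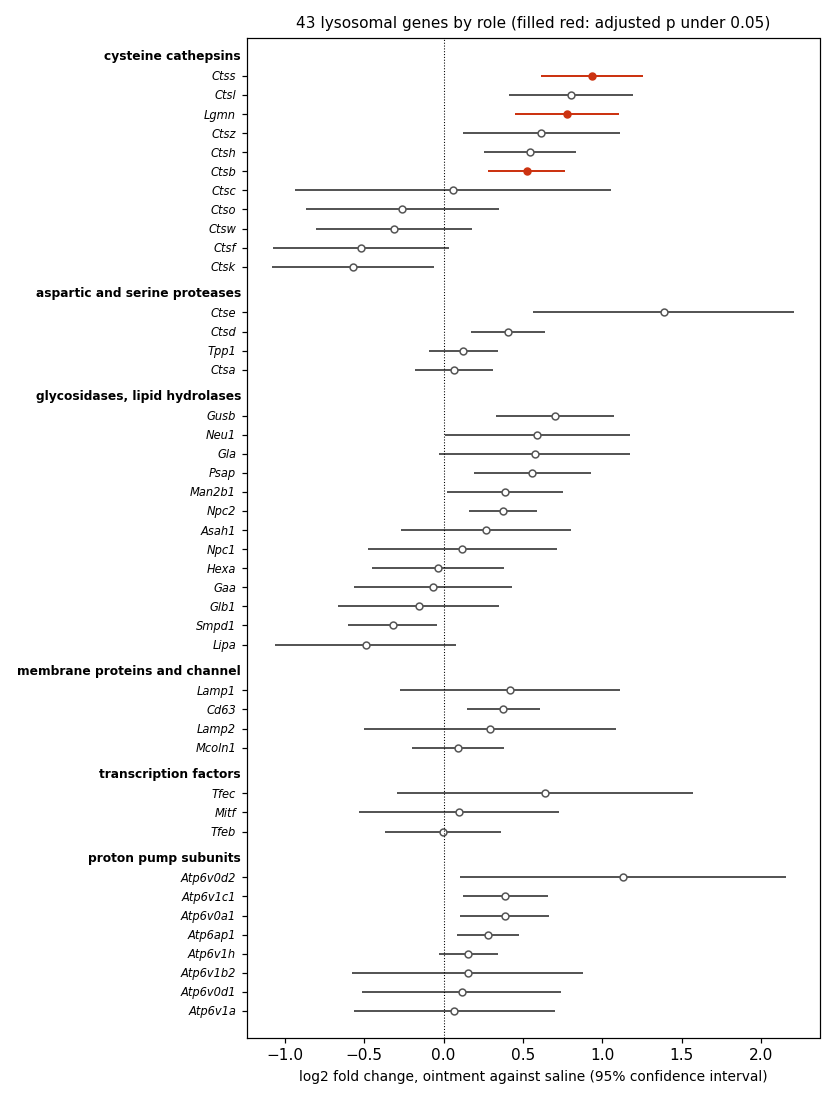
Log2 fold change (log2FC) of ointment against saline (horizontal axis) for the 43 members by role, with the 95% confidence interval of the edgeR fit; filled red points passed an adjusted p of 0.05. Ctss, Lgmn and Ctsb are the 3 filled points, and 33 of the 43 points lie above 0.

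By edgeR, none of the 13 hydrolases and helpers of sugar and lipid breakdown passed; 8 fold changes were positive and 5 negative, with a median log2FC of 0.27. At an unadjusted p under 0.05, 5 were higher and 1 lower, and DESeq2 called 3 higher. Gusb, beta-glucuronidase, was 77.0, 110.1, 76.3, 64.0 and 71.2 CPM in saline libraries 1 to 5 and 123, 116, 154, 145 and 109 CPM in ointment libraries 1 to 5. Saline 2 reached the ointment range and the other 4 saline libraries lay below it. The log2FC was 0.70 (SE 0.16, adjusted p = 0.0654 by edgeR), and it passed without saline 2 (0.86, adjusted p = 0.0308). Npc2, which hands cholesterol to the membrane protein Npc1, was 573, 579, 621, 546 and 609 CPM in saline libraries 1 to 5 and 707, 784, 788, 668 and 848 CPM in ointment libraries 1 to 5. Its groups were apart at a small difference (0.37, SE 0.093, adjusted p = 0.0759), which passed without ointment 4 (0.0493). Npc1 itself was 41.5 to 106 and 53.5 to 75.6 CPM (0.12, adjusted p = 0.886).

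Psap, the precursor of the saposins that present glycolipids to their hydrolases, was 802 to 1139 CPM with saline and 1011 to 1734 CPM with ointment (log2FC 0.56, adjusted p = 0.116 by edgeR). Man2b1, an alpha-mannosidase, was 105 to 168 and 143 to 212 CPM (0.39, 0.253). Both pairs of ranges overlapped. Neu1, a neuraminidase that removes sialic acid, was 23.2 to 33.5 CPM with saline and 28.5 to 74.1 CPM with ointment, where ointment 5 stood apart from the other 4. Its log2FC of 0.59 (adjusted p = 0.279) was 0.27 without ointment 5 (0.445). Gla, alpha-galactosidase A, was likewise highest in ointment 5, at 118 CPM, and lowest in saline 1, at 25.4 CPM, and its log2FC of 0.57 (adjusted p = 0.313) was 0.33 without ointment 5 (0.585).

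Among the lipid hydrolases, Lipa, which releases cholesterol from its esters, was 133, 85.7, 130.3, 112 and 111 CPM in saline libraries 1 to 5 and 75.0, 112, 54.2, 50.6 and 116 CPM in ointment libraries 1 to 5. Ointment 1, 3 and 4 lay below every saline library and ointment 2 and 5 within their range (log2FC -0.49, SE 0.25, adjusted p = 0.366 by edgeR). Smpd1, acid sphingomyelinase, was 72.8 to 106 and 65.4 to 86.0 CPM (-0.32, 0.212), with saline 5 among the ointment libraries. Asah1, acid ceramidase, was 109 to 232 and 164 to 299 CPM (0.27, 0.645), at 0.11 without saline 1, its lowest library. The intervals of Hexa, Gaa and Glb1, enzymes of ganglioside, glycogen and galactoside breakdown, spanned 0: -0.45 to 0.37 for Hexa, -0.56 to 0.42 for Gaa and -0.66 to 0.34 for Glb1.

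Of the membrane proteins, Cd63, a tetraspanin, was 791 to 980.2 CPM with saline and 1059.5 to 1282 CPM with ointment (log2FC 0.38, SE 0.10, adjusted p = 0.0916 by edgeR). The groups did not overlap, the difference did not pass, and a pseudogene copy, Cd63-ps, could share its reads. Lamp1 and Lamp2, the main glycoproteins of the lysosomal membrane, each fell on separate levels within both groups. Lamp1 was 477, 925, 1223, 1000.2 and 506 CPM in saline libraries 1 to 5 and 1361, 1148, 587, 1177 and 1248 CPM in ointment libraries 1 to 5. Saline 1, saline 5 and ointment 3 were low and the other 7 libraries high (0.42, 95% confidence interval -0.27 to 1.10, adjusted p = 0.563). Lamp2 was 359.9, 351, 299.7, 378 and 896 CPM in saline libraries 1 to 5 and 827, 756, 416, 374 and 421 CPM in ointment libraries 1 to 5. Here saline 5, ointment 1 and ointment 2 were high and the other 7 low (0.29, -0.50 to 1.08, 0.758), and the log2FC was 0.69 without saline 5 and 0.11 without ointment 1. Mcoln1, the calcium channel of the lysosome, had an interval that spanned 0 (0.091, -0.20 to 0.38, 0.801).

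Steps within a group were found in a like share of members and of all genes. Among members with at least 10 CPM on average, 12 of 41 (29.3%) had neighbouring libraries of a group, once sorted, that differed at least 1.8-fold, against 28.4% of all 10700 such genes. The libraries on the low level differed from gene to gene: ointment 1 and 4 for Ctsc, ointment 3 for Lamp1, ointment 4 for Atp6v1a. The cause of the steps was not tested.

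**Figure D3:**
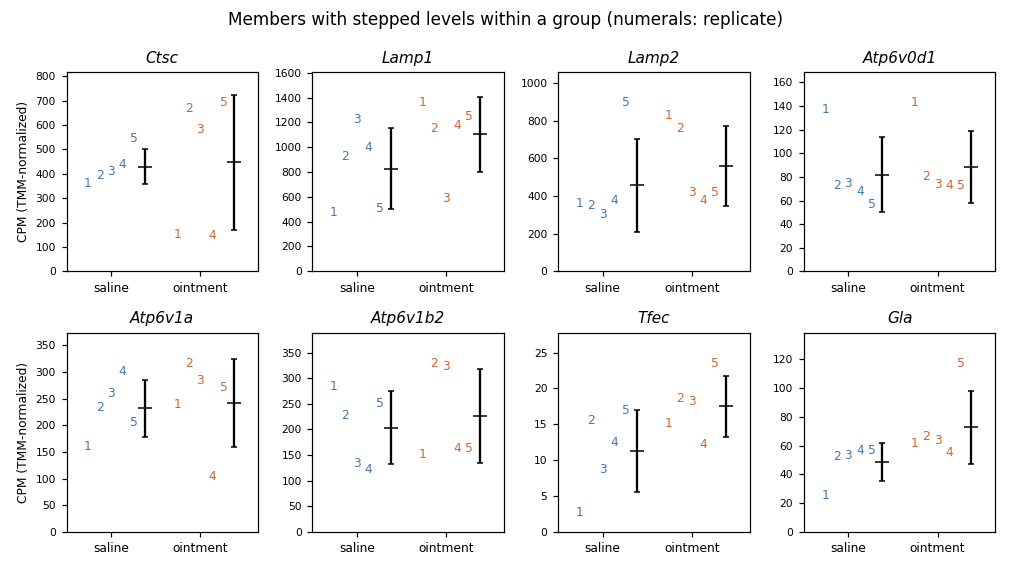
TMM-normalized CPM (vertical axes from 0) of 8 members with a step of at least 1.8-fold between neighbouring libraries of a group; numerals are replicate numbers, bars the mean ± SD of 5 libraries. Ctsc splits the ointment libraries into 2 at 148 and 149 CPM and 3 from 582 to 692 CPM, and Atp6v0d1 is high in saline 1 and ointment 1.

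None of the 3 transcription factors passed by edgeR (0 at an unadjusted p under 0.05, 0 by DESeq2). Tfeb, the factor for which the CLEAR element is best known, was 17.9, 13.5, 18.4, 14.5 and 17.6 CPM in saline libraries 1 to 5 and 18.5, 16.9, 18.2, 11.4 and 16.6 CPM in ointment libraries 1 to 5. Its log2FC was -0.0053 (95% confidence interval -0.37 to 0.35, adjusted p = 0.994 by edgeR), and its sign was positive with DESeq2's size factors (0.0055). These are transcript levels: the activity of Tfeb is known to depend on its phosphorylation and entry into the nucleus, which RNA does not show. Tfec, a relative found in macrophages, was 2.68, 15.6, 8.73, 12.4 and 16.9 CPM in saline libraries 1 to 5 and 15.2, 18.6, 18.2, 12.1 and 23.5 CPM in ointment libraries 1 to 5. Saline 1 was far below the rest, and the groups overlapped (0.64, SE 0.41, adjusted p = 0.498). Without saline 1 the log2FC was 0.38. Mitf, which acts in melanocytes, osteoclasts and macrophages, was 30.9, 24.9, 22.5, 11.7 and 21.8 CPM in saline libraries 1 to 5 and 24.3, 18.9, 35.5, 15.6 and 25.3 CPM in ointment libraries 1 to 5 (0.10, SE 0.28, adjusted p = 0.917), and its sign was negative without saline 4 (-0.079) or ointment 3 (-0.090). Of 6 melanocyte markers tested, Dct, Tyr, Tyrp1 and Slc45a2 fell, Dct alone in each of the 10 fits that left out a library, and the list summed to 29.1 to 78.8 CPM in the saline libraries and 7.68 to 15.2 CPM in the ointment libraries. The other member of the family, Tfe3, did not pass (0.33, 0.323).

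All 8 proton pump members had positive fold changes and none passed by edgeR (4 at an unadjusted p under 0.05, 3 by DESeq2). Over all genes tested, 9195 of 18509 fold changes were positive. With library sizes alone Atp6v1a was negative (-0.0051). Atp6v0d2, a V0 subunit of osteoclasts and macrophages, was 11.1, 3.23, 10.9, 8.51 and 12.1 CPM in saline libraries 1 to 5 and 33.5, 6.73, 27.1, 19.5 and 13.5 CPM in ointment libraries 1 to 5. Ointment 1, 3, 4 and 5 lay above every saline library and ointment 2 did not (log2FC 1.13, SE 0.46, adjusted p = 0.240 by edgeR). Of the 9 markers of osteoclasts and multinucleated giant cells, 1, Mmp9, rose (2.14, adjusted p = 0.0143), and the defining markers Calcr and Oscar were at 0.0999 to 0.281 and 0.0633 to 0.892 CPM with saline and 0.215 to 0.965 and 0.0757 to 2.88 CPM with ointment. That list had 8 positive fold changes and 1 negative, with a median log2FC of 0.96 and 2 higher at an unadjusted p under 0.05. It summed to 229 to 281 CPM in the saline libraries and 511 to 777 CPM in the ointment libraries, without overlap. Neither its part in the pump results nor which cells held the Mmp9 transcript was tested. Acp5, the acid phosphatase of osteoclasts, was at -0.030 (0.959).

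Atp6v1c1, a V1 subunit that joins stator and motor, was 55.1 to 82.7 CPM with saline and 89.4 to 101 CPM with ointment, with the groups apart (log2FC 0.39, SE 0.12, adjusted p = 0.128 by edgeR). The accessory subunit gene Atp6ap1 was 227 to 272 and 289.6 to 325 CPM, also apart (0.28, SE 0.086, 0.13). Atp6v0a1, the ubiquitous a subunit of V0, was 41.1 to 50.6 and 44.6 to 65.2 CPM (0.38, 0.145), with ointment 3 among the saline libraries. Atp6v1h, a regulatory V1 subunit, was at 112 to 123 and 119 to 137 CPM (0.16, 95% confidence interval -0.024 to 0.33, 0.368). Atp6v0d1, Atp6v1a and Atp6v1b2 had stepped levels and wide intervals, -0.51 to 0.74, -0.56 to 0.69 and -0.57 to 0.87 on the log2 scale. Of these, Atp6v1a and Atp6v1b2 encode the catalytic and the nucleotide-binding subunits of V1.

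Outside the 43, a pair of tissue-specific subunits passed, in opposite directions. Tcirg1, the a3 subunit of osteoclasts and macrophages, was 123, 151, 147, 162 and 172 CPM in saline libraries 1 to 5 and rose to 191, 219, 272, 229 and 254 CPM in ointment libraries 1 to 5 (log2FC 0.63, SE 0.13, adjusted p = 0.0412 by edgeR). Atp6v1c2, a C subunit of epithelia, was 46.2, 42.5, 50.5, 39.1 and 30.5 CPM in saline libraries 1 to 5 and fell to 14.1, 18.6, 13.9, 22.8 and 13.6 CPM in ointment libraries 1 to 5 (-1.33, SE 0.19, adjusted p = 0.0150). The groups of both genes did not overlap. The Atp6v1c2 call held whichever library was left out (adjusted p up to 0.0424 by edgeR), and the Tcirg1 call held in 1 of the 10 fits, without ointment 1. With 4 libraries per group both were lost (0.085 for Atp6v1c2 and 0.160 for Tcirg1). Atp6v1b1, the B subunit of acid-secreting epithelial cells, was 2.38 to 5.58 and 0.149 to 1.49 CPM and did not pass (-2.72, 0.0712). Of the 15 other subunits tested, 1 was higher, 1 lower and 13 did not pass. Their fold changes were positive in 9 and negative in 6, with a median log2FC of 0.013.

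**Figure D4:**
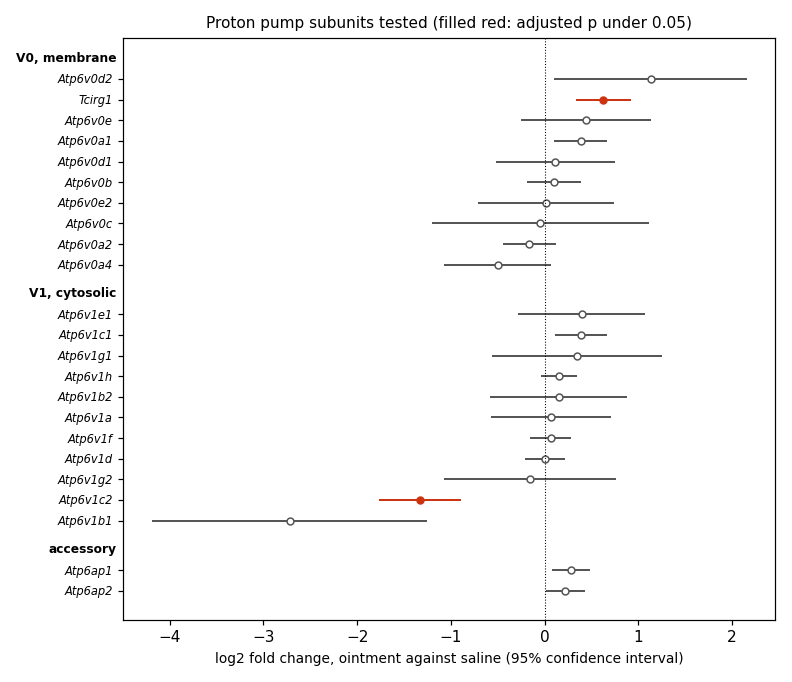
Log2 fold change (log2FC) of ointment against saline (horizontal axis) for the 23 proton pump genes tested, by sector, with the 95% confidence interval of the edgeR fit; filled red points passed an adjusted p of 0.05. Tcirg1 is the filled point above 0 and Atp6v1c2 the filled point below 0.

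Beyond the 43, 153 tested genes listed for the same pathway held 4 that rose and 2 that fell, and 147 did not pass. Over all genes tested, 0.692% were called higher and 0.983% lower. The median log2FC of the 153 was 0.095. Of 36 other hydrolases and activators, Galns, a sulfatase of keratan sulfate, rose from 23.2 ± 3.26 to 35.3 ± 3.07 CPM (SD, n = 5; log2FC 0.60, adjusted p = 0.0405 by edgeR). Hgsnat (0.75, 0.0628), Ggh (-0.57, 0.0637) and Gnpda1 (1.24, 0.0727) did not pass. The list was drawn up by symbol, and whether each product, that of Gnpda1 included, lies in the lysosome was not tested. Of 26 other membrane proteins, the channel gene Mcoln3 fell from 3.20 ± 0.913 to 0.706 ± 0.411 CPM (-2.17, adjusted p = 0.0319). Whether Mcoln3 and Mcoln1 differ in this was not tested. Tpcn2, a cation channel, was at 0.82 (0.0683), Cln3 at 0.38 (0.0725) and Tmem192 at 0.35 (0.101).

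Of 17 genes listed by symbol as cathepsin inhibitors, 16 did not pass and 1, the serpin gene Serpinb6b, rose. It went from 5.50 ± 1.27 to 11.4 ± 2.02 CPM (log2FC 1.05, adjusted p = 0.0349 by edgeR). Among the 16, the stefin genes Cstdc5 (-0.68, 0.0620) and Csta2 (2.21, 0.0736) belong to a cluster of near-identical copies, so their values are uncertain. Cst6, the cystatin of epidermis, was at -0.73 (0.108). Which proteases each product inhibits was not tested. None of 13 genes that sort enzymes by the mannose phosphate tag passed by edgeR (2 higher and 1 lower at an unadjusted p under 0.05, 1 higher by DESeq2); Sorl1 was at 1.38 (0.179) and the receptor gene M6pr at 0.33 (0.257). None of 23 genes of the mTORC1 pathway that controls the TFEB family passed by edgeR (1 lower at an unadjusted p under 0.05 and 1 by DESeq2), the smallest adjusted p being that of Tsc2 (-0.33, 0.111), and the list's median was -0.013. Of 23 autophagy genes, the cargo receptor gene Optn rose (0.80, adjusted p = 0.0416), while Atg7 (0.55, 0.0832) and Vps11 (0.32, 0.160) did not pass. These 4 calls depended on the libraries used. Of 10 fits that each left out 1, Galns passed in 1 (without saline 5), Optn in 1 (without saline 3), Mcoln3 in 2 (saline 5, ointment 4) and Serpinb6b in 2 (saline 5, ointment 2).

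Per kilobase of annotated exon, the members spanned a wide range of levels. In the saline group Ctsd led at 853 CPM per kb, followed by Ctss at 539, Ctsb at 525 and Ctsk at 387 CPM per kb. In the ointment group the levels of these 4 were 1129.6, 1032, 755 and 260.2 CPM per kb. The transcription factors stood near the bottom in the saline group, at 3.61 CPM per kb for Mitf, 2.89 for Tfeb and 2.01 for Tfec, and Ctse was the lowest at 0.470 CPM per kb. Together the 43 genes took 1.48% to 1.71% of all counts in the saline libraries and 1.88% to 2.20% in the ointment libraries.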

How the data were processed

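Per the labels' protocols, ulcer RNA was column-purified and sequenced from SMARTER mRNA libraries, with nothing said of strand. The submitters' processing notes name GRCm38 (mm10). The aligner, counter and annotation were not given in the sources used here. Deposited by the authors was 1 table of estimated counts per gene for 10 libraries, not normalized. The values were whole, so rounding changed nothing. They were treated as estimated because many genes sit on stepped levels and, of values from 1 to 20, 34.9% were multiples of 4 (25% if spread evenly). A count, and so a library total, may therefore not be a number of independent reads, and the fit was repeated on values divided by 4. No column without a matching label was present. Libraries were matched to groups by title and description.

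Groups were compared with edgeR 4.0.16 (R 4.3.3): TMM normalization, filterByExpr (count of at least 10, total of at least 15; 18509 genes kept), and the robust quasi-likelihood test with group as the only term. Two-sided p-values were Benjamini-Hochberg adjusted across those genes (threshold 0.05). The pipeline was tested on simulated data. Standard errors and 95% confidence intervals belong to the log2 fold change (ointment against saline), and levels are TMM-normalized CPM. No label says that the libraries came from separate animals, so the p-values cover the spread among these libraries only, and that may be technical.

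Locations, exon lengths and overlaps came from GENCODE M21 (GRCm38), in which an exon of 9 members overlapped an exon on the opposite strand. These were Ctsb, Ctsl, Ctsz, Ctsw, Ctsa, Hexa, Npc1, Lamp1 and Atp6v1h, and without strand their reads cannot be told apart from those of the partner. In 3 members, Ctsd, Ctsl and Glb1, exons overlapped another gene on the same strand. Members and lists were chosen with earlier results of these data known. Every member could be named; of each pathway list, genes past the threshold and up to 3 with the smallest p were named. Members given in every library were those past the threshold, the next 4 by p and the transcription factors; others given so were chosen after their values were seen. The values of 1 marker gene are not reported here. Symbols not found were 4 of 159 in the pathway lists. Alternatives were other scaling, other filters, DESeq2 1.42.0, limma 3.58.1 voom, the replicate number as a block, values divided by 4, and libraries left out.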

Additional observations from a re-analysis of the deposited data

Results flagged for a closer look

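In 10 of the 86 groups of 5 libraries (43 members, both treatments; 11.6%), 1 library stood apart from the other 4 by a gap that was large against the range of the group; chance flags about 1 in 20 groups. Over all genes tested the share was 9.36%, and among genes of at least 10 CPM it was 9.98%, so the members' share was near that of the whole table. In the saline group, Gla was 25.4 CPM and Asah1 109 CPM in saline 1, below the other 4 libraries. Atp6v0d1 stood out above the rest at 137 CPM in saline 1, Gusb at 110.1 CPM in saline 2, and Lamp2 at 896 CPM in saline 5. In the ointment group, Gla reached 118 CPM and Neu1 74.1 CPM in ointment 5, and Atp6v0d1 143 CPM in ointment 1. Lamp1 was low at 587 CPM in ointment 3, and Tfeb at 11.4 CPM in ointment 4. Their causes were not tested.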

How the results depend on the processing

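The 3 members called higher and 0 lower, the 128 and 182 genes called higher and lower over all genes, and the 4 and 2 other pathway genes depended on the libraries and the test. With a library left out, members called higher ranged from 1 to 4, all genes called higher from 45 to 199 and lower from 55 to 223, and other pathway genes called higher from 0 to 2 and lower from 1 to 3. Ctss was called in each of those 10 fits. The ends of the ranges over all genes came without ointment 5 and ointment 3 (lowest) and without ointment 4 (highest). With 4 libraries per group the counts were 0 members, 21 and 38 of all genes and 0 and 0 other pathway genes. DESeq2 called 14 members higher (4.73% of all genes), 873 and 804 of all genes, and 16 and 9 other pathway genes. Without the low-count filter, 85 of all genes were higher and 0 other pathway genes; upper-quartile scaling gave 2 and library sizes alone 1 of the latter, and limma voom gave 4 lower. Adding a replicate block brought all 6 counts to 0 (18 members at an unadjusted p under 0.05). The labels do not say whether the number pairs the libraries. Same-numbered libraries correlated at -0.077 to 0.056 in their deviations, and none correlated best with its own number. With 5 libraries per group, these values cannot settle whether they are paired.

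Of 860 refitted member values, 36 had the opposite sign, all for members that did not pass. On the log2 scale their values were these. Tfeb was 0.0055 (DESeq2's size factors), 0.0042 (a mean of at least 1 CPM), 0.0054 (DESeq2), 0.026 (voom), 0.0034 (values divided by 4), 0.023 (4 libraries per group), -0.058 to 0.11 with a library left out. Ctsc was -0.021 (library sizes alone), -0.25 (voom), -0.23 (the block), -0.21 (4 libraries per group), -0.15 to 0.29 with a library left out. Atp6v1a was -0.0051 (library sizes alone), -0.083 (4 libraries per group), -0.053 to 0.27 with a library left out. Hexa was 0.040 (4 libraries per group), -0.12 to 0.059 with a library left out. Gaa was -0.21 to 0.047 with a library left out. Npc1 was -0.0013 to 0.42 with a library left out. Mitf was -0.090 to 0.23 with a library left out. Atp6v0d1 was -0.13 to 0.37 with a library left out. Atp6v1b2 was -0.025 to 0.29 with a library left out. Glb1 was 0.015 (4 libraries per group). The other 33 members kept their sign in every alternative run. With a library left out, 19 of the 43 members, none of them called, had a log2 value that moved by over 1.5 times. Scaling moved the median of all genes by less than 0.1. Ctse and Ctsw had the lowest levels of the members in the saline group, so counting error weighs most on them.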
